A study of Mus musculus with 18 samples.

Results

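The clustered protocadherin genes lie on mouse chromosome 18 in the order Pcdha, Pcdhb and Pcdhg, and RAD21 binding there was described in splenic B cells. The members were all peaks of the 12 deposited lists whose centre lay between positions 37050000 and 38050000 of chromosome 18 on mm9, whatever their score. This gave 15 peaks, which merged into 5 sites when peaks sharing at least 1 bp were joined. They were 5 of the 581 sites of chromosome 18 and of the 18957 sites in all. RAD21 is a subunit of cohesin, the ring complex that holds sister chromatids together and forms chromatin loops, and its position was measured by chromatin immunoprecipitation and sequencing (ChIP-seq).

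All B cells were purified from the spleens of wild-type C57BL/6J mice (C57BL/6 in the labels) aged 8 to 10 weeks, and each replicate pooled the cells of 12 mice. There were 3 replicates of resting cells, 3 of cells stimulated for 48 h and 3 of cells stimulated for 96 h, with 50 µg/ml LPS and 2 ng/ml IL-4, which together induce the switch to IgG1. The 96 h cells had been enriched for IgG1-positive cells by negative selection, so time and purification cannot be told apart. Beside the 9 replicate lists there is 1 pooled list per time point, called by the authors on the merged reads of its replicates, so a pooled list is no independent sample.

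Clustered protocadherins are cell adhesion proteins best known from neurons, where each cell uses a few isoforms that give it a surface identity. In Pcdha and Pcdhg, each of many variable exons has its own promoter and encodes the extracellular, transmembrane and first cytoplasmic part of an isoform, and is spliced to constant exons at the end of the cluster. Pcdhb genes have a single coding exon each. In neurons CTCF, a DNA-binding protein at which cohesin often halts, and cohesin bind at promoters and enhancers of these clusters.

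The replicate lists held 821 to 8579 peaks and the pooled lists 5579 to 12806. Read depth under each peak is unknown, and a missing peak says only that the threshold of the peak caller was not passed. The 48 h replicate 2 stood apart from the other lists. The Jaccard index, a measure of how far a pair of lists overlaps, did not exceed 0.0306 for pairs that included this replicate. For pairs of the other replicates it lay between 0.0863 and 0.425. The 48 h replicate 2 also had no peak in the window.

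Pcdha and Pcdhb held no peak in any of the 12 lists, and Pcdhg held 12 of the 15 peaks. The Pcdhg peaks formed 4 sites within 24.0 kb in the middle of the cluster, each 185 to 243 bp before the first ATG of a long open reading frame. The remaining 3 peaks formed 1 site in an intron of Diap1, the neighbouring gene of a formin that drives actin assembly. No site lay at a constant exon. No site was found in more than 2 of the 9 replicates, and 11 of the 15 peaks ranked below the middle of their lists by score.

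**Figure D1:**
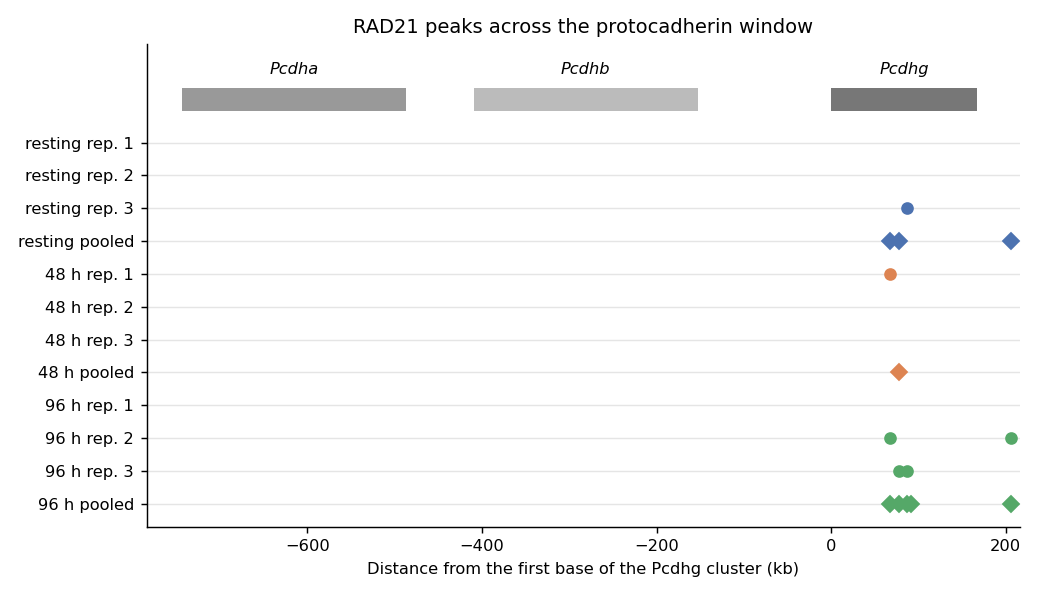
RAD21 peaks of the 12 lists (rows, circles for replicates and diamonds for pooled lists) by distance in kb from the first Pcdhg base, with the spans of the 3 clusters as grey bars. All 15 peaks lie to the right, 12 inside Pcdhg and 3 beyond its end, and the rows below Pcdha and Pcdhb are empty.

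The first site, chr18:37901574-37901822, was 249 bp long and had its centre 50.0 bp before the annotated start of the first exon of transcript Pcdhgc5-201. The annotation used, GENCODE release M1, lists all Pcdhg isoforms under the symbol Pcdhgc5, so variable exons are named here by transcript and not by isoform. The site was called in 48 h replicate 1, at a score percentile of 26.1 within that list, and in 96 h replicate 2, at percentile 49.3. Among the pooled lists it stood at percentile 14.7 in resting cells and 58.9 at 96 h, and was missing from the pooled 48 h list although 1 of its replicates had it. It was thus seen at each time point in at least 1 list and in no more than 1 replicate of any.

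The second site, chr18:37911099-37911286, was 188 bp long and the only one of the 5 sites found in all 3 pooled lists. Its percentile there was 26.9 in resting cells, 17.1 at 48 h and 50.8 at 96 h. Among replicates it was called in 96 h replicate 3 alone, at percentile 33.9. It lay in an intron of Pcdhgc5 and of Gm16882, a long non-coding RNA gene annotated on the opposite strand. The nearest annotated variable exon, that of Pcdhgc5-204, began 4234.5 bp further on, but an unannotated reading frame of 853 codons began 240.5 bp after the site's centre.

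The third site, chr18:37921225-37921472, was 248 bp long and was called in resting replicate 3 at percentile 59.6, the highest of the replicate peaks. It was also called in 96 h replicate 3 at percentile 24.0 and in the pooled 96 h list at percentile 63.8, but not in the pooled resting list. It too lay in the intron of Gm16882. The first exon of Pcdhgc5-202 began 3885.5 bp downstream, whereas an unannotated reading frame of 743 codons began 184.5 bp downstream.

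The fourth site, chr18:37925458-37925599, was 142 bp long and was called only in the pooled 96 h list, at percentile 25.7, so no replicate had it. Its centre lay 294.5 bp inside the first exon of Pcdhgc5-202 and 242.5 bp before the ATG of that exon's reading frame of 812 codons.

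The fifth site, chr18:38039965-38040157, was 193 bp long and lay in an intron of Diap1, 38534 bp after the last base of Pcdhg. It was called in 96 h replicate 2 at percentile 26.7, and in the pooled lists of resting cells at percentile 3.89 and of 96 h cells at percentile 37.7. Its pooled resting peak had the lowest rank of the 15. The next site downstream, at 38067766 to 38068109 and 17937.5 bp outside the window, also lay in a Diap1 intron but was called in 6 replicates, 2 resting, 1 at 48 h and 3 at 96 h, and in all 3 pooled lists, at percentiles 62.3 to 97.8.

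**Figure D2:**
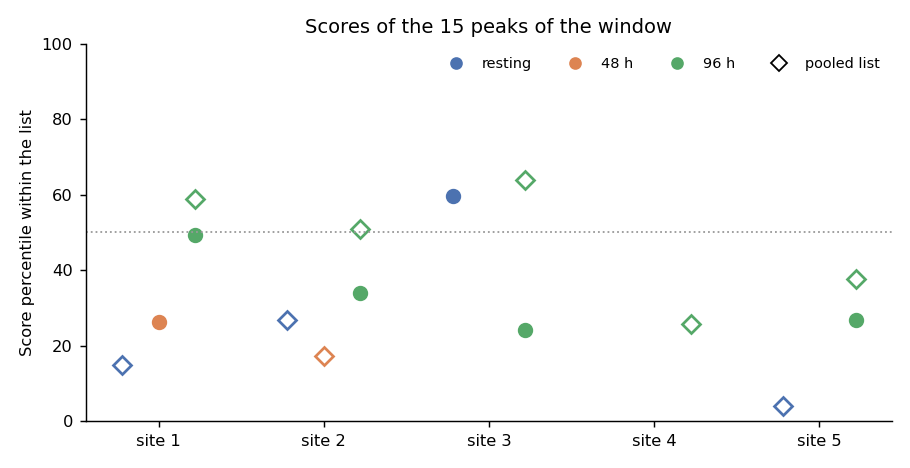
Score percentile of each of the 15 peaks within its own list (0 lowest, 100 highest), by site (numbered 1 to 5 in chromosomal order) and time point, with filled circles for replicates and open diamonds for pooled lists; the dotted line marks the middle of a list. The 6 replicate peaks lie between 24.0 and 59.6, and the pooled peaks of 96 h lie above those of resting and 48 h cells at the sites they share. The pooled lists differ in length (5690 peaks at rest, 5579 at 48 h and 12806 at 96 h). A rank within a list is no measure of binding strength across lists.

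Variable exons were counted in the annotation and long reading frames in the sequence, because the annotation lacks many variable exons. GENCODE gave 43 first exons of transcripts, 9 in Pcdha, 25 in 21 Pcdhb genes, of which 4 have 2, and 9 in Pcdhg. A site lay in 2 of the 43 or within 1000 bp before them (4.65%, exact binomial 95% interval 0.568 to 15.8%), and in 2 of 39 with 1 exon per Pcdhb gene (5.13%, interval 0.627 to 17.3%). Those were the exons of Pcdhgc5-201 and Pcdhgc5-202. Reading frames of at least 700 codons on the strand of the genes numbered 14 in Pcdha, 24 in Pcdhb and 20 in Pcdhg, and 4 of the 58 had a site (6.90%, interval 1.91 to 16.7%). Coding first exons elsewhere on chromosome 18 had one in 28 of 967 cases (2.90%, interval 1.93 to 4.16%), which lies inside the 3 intervals. Exon lengths were not matched between these sets, although a longer exon gives a site more room. A reading frame runs from ATG to stop and is not a first exon. Frames were taken by length within the annotated span of each cluster, and whether each unannotated frame encodes a protocadherin was not checked. The intervals cover counting error only.

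**Figure D3:**
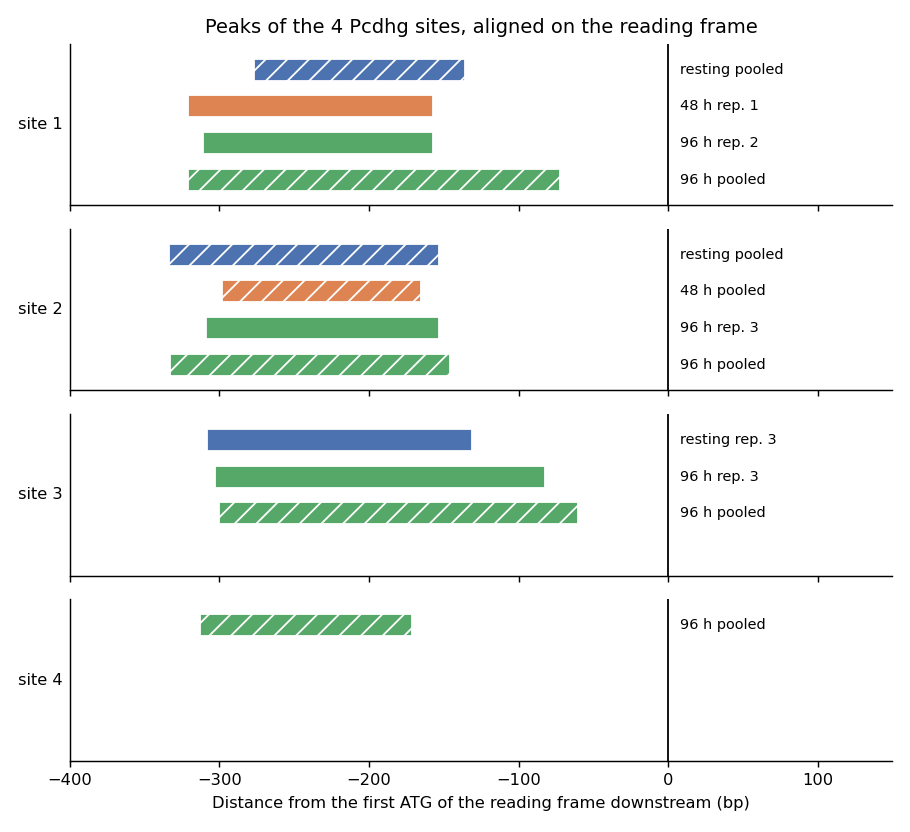
Extent of each peak at the 4 Pcdhg sites, in bp from the first ATG of the reading frame downstream (vertical line), with solid bars for replicates and hatched bars for pooled lists. Every peak ends before the ATG, and at each of the first 3 sites the peaks of all lists share a stretch.

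The 4 Pcdhg sites lay within 24.0 kb of a cluster whose annotated span was 167.5 kb. Further frames of 1281, 810 and 821 codons lay between the annotated spans of Pcdhb and Pcdhg. They were counted in neither cluster and had no site, and whether any belongs to Pcdhg was not checked. Of the 20 reading frames inside the annotated span of Pcdhg, 11 came before the first frame with a site. From the first to the last frame with a site there were 6, of which 4 had one. The last 3, nearest to the constant exons, came after it. These stretches were drawn from the sites, so the outer ones are empty by definition. The centres of successive sites were 9494.5, 10156 and 4180 bp apart. The first lay 67709 bp after the first base of the annotated span, and the fourth lay 59146.5 bp before the first of the 3 constant exons. Runs of 4 sites within as short a length occurred 2 times on chromosome 18, this one included, and 227 times on all chromosomes. The proteins of the first 3 frames were alike, with 71.9% identical residues between the first and the second, 67.5% between the first and the third and 67.7% between the second and the third. The fourth frame was more distant, at 46.1, 47.2 and 49.5% identity to the other 3. Only frames with a site were compared. Whether their likeness differs from that among the other Pcdhg frames was not tested.

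The stretch without a site that ends at the first Pcdhg site was 1001.8 kb long, from position 36899763 to 37901573, and takes in Pcdha, Pcdhb and the start of Pcdhg. It ranked 7th of the 580 gaps between neighbouring sites of the chromosome, whose median was 83.8 kb and whose longest was 2061 kb. It held 36 starts of coding genes, against a median of 2.5 and at most 5 in the longer gaps. The site at its upstream end lay in an intron of Tmco6 and was called in 1 replicate.

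Reads that match several places of the genome can limit peak calling in repeated sequence, and the protocadherin exons resemble each other. Of the words of 32 bases starting in the window, 80.2% occurred once in the genome, against 86.8% on the rest of chromosome 18. The share was 77.4% in Pcdha, 79.5% in Pcdhb and 93.5% in Pcdhg. Around the sites it was 76.5% at the first, 76.6% at the second and 100% at the other 3. The part of this difference in the missing peaks of Pcdha and Pcdhb was not tested.

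Peak density in the window was compared with that on the rest of chromosome 18 in each replicate. Resting replicates 1 and 2 had no peak in the window, with 0.704 and 0.266 peaks per Mb elsewhere, and resting replicate 3 had 1 peak per Mb against 1.06. The 48 h replicate 1 had 1 peak per Mb against 0.543, while replicates 2 and 3 had none against 2.16 and 0.566. The 96 h replicate 1 had none against 1.02, replicate 2 had 2 against 1.51 and replicate 3 had 2 against 2.85. The window was thus below the rest of the chromosome in 7 of the 9 replicates and above it in 48 h replicate 1 and 96 h replicate 2. At 0.266 to 2.85 peaks per Mb a window of 1 Mb holds few peaks. A replicate with none is always below, as 5 were, so the 7 of 9 do not by themselves show a lower density.

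**Figure D4:**
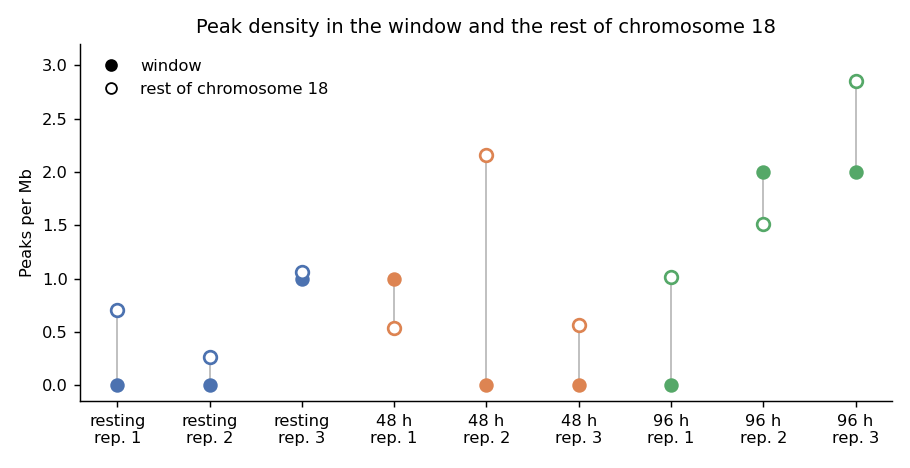
Peaks per Mb in the window (filled) and on the rest of chromosome 18 (open) for each of the 9 replicates. The filled point lies below the open one in 7 replicates, and 5 replicates have no peak in the window.

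The mean density was 0.667 peaks per Mb in the window and 1.19 on the rest of the chromosome, a difference of -0.52 ± 0.816 peaks per Mb (SD, n = 9), which did not pass the exact two-sided sign-flip test (p = 0.0820, the smallest possible p being 0.00391). Without 48 h replicate 2, the list that stood apart, the difference was -0.315 (exact sign-flip p = 0.164). The sign-flip test takes differences to be symmetric around 0 when there is no effect, which differences from such small counts need not be. The result turned on how density was measured. The difference passed the test when the comparison was with all other autosomes, at -0.744 peaks per Mb (exact p = 0.0234), and when the annotated genes replaced the window, at -0.577 (exact p = 0.0352). Without 48 h replicate 1 or 96 h replicate 2, the replicates with the window above the rest, it was -0.642 and -0.646 (exact p = 0.0391 each). With every list limited to its 821 highest-scoring peaks no peak remained in the window.

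In the pooled lists the window held 3 peaks per Mb in resting cells against 1.96 on the rest of the chromosome, 1 against 2.11 at 48 h, and 5 against 4.26 at 96 h. As a share of the chromosome's peaks this was 1.73% in resting cells (exact 95% interval 0.359 to 4.98%), 0.543% at 48 h (0.0138 to 2.99%) and 1.34% at 96 h (0.435 to 3.09%), and the 3 intervals overlapped. In merged sites the window held 5 per Mb and the rest of the chromosome 6.65. Among the 86 other stretches of 1 Mb, 28 held fewer sites, 10 as many and 48 more, with a median of 6.5 and a range of 0 to 17. The window was the richest in genes, with 29 starts of coding genes against a median of 4 and at most 22 in the others.

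The 6 replicate peaks came from 4 replicates. In those, the median score percentile in the window was 59.6 against 49.1 on the rest of chromosome 18 in resting replicate 3, 26.1 against 62.0 in 48 h replicate 1, 38.0 against 46.7 in 96 h replicate 2 and 29.0 against 52.3 in 96 h replicate 3. It was lower in 3 of the 4, by a mean of -14.3 ± 20.0 percentile points (SD, n = 4), which did not pass an exact sign-flip test (two-sided p = 0.375) that could not reach below 0.125. The difference was -22.7 without resting replicate 3 and -7.19 without 48 h replicate 1. Support by replicates was like that of other sites in part. In the window 4 of the 5 sites (80%) had at least 1 replicate and 2 (40%) had 2, against 81.8% with at least 1 and 31.4% with at least 2 of the other 576 sites of the chromosome. None of the 5 had 3 or more replicates, which 110 of the others (19.1%) had, up to all 9.

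Resting and 48 h replicates had a mean of 0.333 ± 0.577 peaks in the window each, and 96 h replicates 1.33 ± 1.15 (SD, n = 3 each). The values were 0, 0 and 1 at rest, 1, 0 and 0 at 48 h, and 0, 2 and 2 at 96 h, so the groups overlapped. An exact permutation test over the 3 time points gave F = 1.5 (p = 0.464). The difference from 96 h cells was 1 peak for resting and for 48 h cells alike (exact permutation p = 0.4, adjusted 0.6 over 3 pairs, with 0.1 the smallest possible). Both differences ran from 0.667, without 96 h replicate 2 or 96 h replicate 3, to 1.67, without 96 h replicate 1. With only the peaks at or above the median score of their list, 96 h cells differed by 0 from resting and by 0.333 from 48 h cells. List length differed as well, from 821 to 3578 peaks at rest, 1538 to 5254 at 48 h and 2807 to 8579 at 96 h. Per 1000 peaks of the list the means were 0.0932 in resting, 0.217 at 48 h and 0.224 at 96 h.

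No single site separated the time points. None of the 5 sites was in every replicate of 1 time point and in none of another, and Fisher's exact test gave p = 1 for each site and pair, 0.1 being the smallest value it could give. Of all sites with a replicate peak at either time point, 1.33% were of this all-or-none kind between resting and 48 h cells, 5.94% between resting and 96 h cells and 5.71% between 48 h and 96 h cells. With 5 sites a count of 0 is near those shares and is no result about the protocadherin sites.

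Letters of the CTCF motif were then looked for, since cohesin often lies at CTCF sites. None of the 5 sites held the core word AGGGGGC within 100 bp of its centre on either strand, and none held the related word AGGTGGC, the word AGAGGGC or the word AGATGGC. Of the other sites of chromosome 18, 45.8% held at least 1 of these words, and of windows 1000 bp beside all sites 13.9%. The share was 66.3% at sites with a peak in 3 or more replicates, against 48.4% at all sites. None of the 5 sites had that many replicates, and the comparisons here were not matched for it. A motif of 20 bases with the core AGGGGGCGC, which contains the first of those words, was also learned from 911 sites on other chromosomes called in at least 6 replicates. A match, at 9.29 log2 odds or more against base composition, was found within 100 bp of the centre at 90.9% of those sites, at 62.5% of the other chromosome 18 sites and at 5.30% of windows beside them. The threshold was set so that 5% of windows beside the 911 sites matched, so a share near 5% beside sites was built in. The 90.9% was scored on the sites the motif was learned from. It was found at 1 of the 5 sites of the window, the fourth, which scored 16.5 log2 odds. The first 3 Pcdhg sites scored 4.66, 3.29 and 4.41, and the site in Diap1 scored -7.62. At the fourth site the core ran in the direction of the gene, 294.5 bp before the reading frame.

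The same motif lay before most reading frames of the clusters that had no peak. In the 201 bp centred 200 bp before the ATG, 12 of the 14 Pcdha frames held a match (85.7%) and 21 of the 24 Pcdhb frames (87.5%), but 1 of the 20 Pcdhg frames (5%), that of Pcdhgc5-207. The Pcdhb frames without a match included unannotated ones of 804 and 1044 codons. The median score was 12.6 log2 odds in Pcdha, 13.3 in Pcdhb and 4.40 in Pcdhg. All 34 matches ran in the direction of the genes, at a median of 212.5 bp before the ATG. None of the 4 Pcdhg frames with a site had a match there, and 1 of the 16 without a site did. The match of the fourth site reached just beyond the stretch searched. Over the whole span of each cluster, matches of at least 12 log2 odds numbered 31 in Pcdha, 28 in Pcdhb and 17 in Pcdhg, the shortest cluster. The low count in Pcdhg thus holds for the stretch searched before the ATG and not for the cluster as a whole. Of 32817 RefSeq promoters on GRCm38, those of chromosome 18 not included, 8.64% held a match in the 201 bases farthest upstream of their sequence, a stretch placed by the transcription start and not by the ATG.

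**Figure D5:**
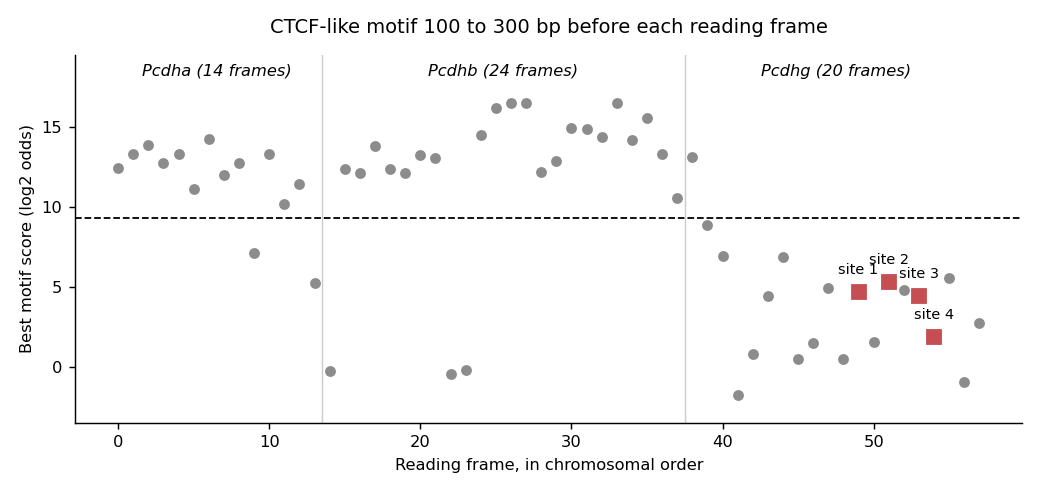
Best motif score (log2 odds) in the 201 bp centred 200 bp before the ATG of each of the 58 reading frames, in chromosomal order by cluster, with the match threshold of 9.29 as a dashed line and the frames with a RAD21 site as red squares. Pcdha and Pcdhb frames lie mostly above the line without a site, and the 4 frames with a site lie below it.

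Sequence before these frames was unique for the most part. The median share of words of 32 bases occurring once was 100% in each cluster, and only 2 Pcdhb frames, both unannotated and at 0%, fell under 50%. A match alone seldom went with a RAD21 site in these cells. Of matches of at least 12 log2 odds on the rest of chromosome 18, 334 of 6886 (4.85%) had a site within 100 bp, and of those in or up to 1000 bp before a coding first exon 14 of 120 (11.7%, exact interval 6.53 to 18.8%). Of the 29 such matches before Pcdha and Pcdhb frames none did. If a count of 0 is taken to allow 3, the share could be up to 10.3% (3 of the 29), above the 4.85% and inside the interval at first exons. The exact interval, 0 to 11.9%, holds both the 4.85% and the 11.7%. In the whole window it was 1 of 103 (0.971%, interval 0.0246 to 5.29%), the fourth Pcdhg site.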

How the data were processed

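RAD21 ChIP-seq of 9 replicates was analysed from 12 deposited peak lists. Per the labels and the methods, the authors aligned reads to mm9 with Bowtie 2, reduced every library to an equal number of distinct positions, and then ran MACS 2 with input as control and a false discovery rate of 0.05. Each deposited peak has a score whose statistic is not named, used only as a rank within its list. The 9 input libraries entered through peak calling alone.

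Python 3.11.15, numpy 2.4.6, scipy 1.17.1, numba 0.67.0, Biopython 1.88 and matplotlib 3.10.9 were used. Peaks sharing at least 1 bp were merged into sites. Features came from GENCODE release M1 on the same assembly. A percentile is the mid-rank within a list. The test over replicates was an exact sign-flip test, time points were compared by exact permutation, and single sites by Fisher's exact test, all two-sided at 0.05, with Benjamini-Hochberg adjustment over 3 pairs. Intervals are exact binomial at 95%. The steps passed 8 of 8 checks on simulated data. Every site in the window is named. The members and lists were chosen with earlier results of these data known, and the reading frames, the count by Pcdhb gene and the 20-base motif were added after the data had been seen. Motif matches and reading frames are descriptions of sequence. Each replicate came from a pool of mice, and p-values measure the spread between replicates. In the sign-flip tests that spread also holds the differences in time point, purification and list length. Whether replicates of different time points shared a pool is not stated. Alternatives were the score minimum, list length, extent of the region, peak assignment, comparison region, merging, distance to exons, scale, the replicate block and leaving out each replicate. Sequence of the sites is not reported here.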

Additional observations from a re-analysis of the deposited data

How the results depend on the processing

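Of the alternative values, 83 stayed on the same side of the test's threshold or, for counts of sites, within 1.5 times the reported value, 5 passed a threshold that the reported value had missed, 1 of them by construction, 3 moved and none took the opposite sign of a reported value other than 0. The 83 are no measure of robustness. Pairwise differences between time points and the score percentile could not reach 0.05 in any setting. Their smallest possible p in the reported setting was 0.1 by exact permutation and 0.125 by exact sign-flip. The difference in density between the window and the rest of chromosome 18, -0.52 peaks per Mb (exact sign-flip p = 0.0820), passed the threshold with the annotated genes in place of the window (-0.577, exact p = 0.0352) and with all other autosomes as comparison (-0.744, exact p = 0.0234). With lists limited to 821 peaks every list had 0 peaks in the window, so the difference of -0.299 has the smallest p the test can give (exact p = 0.00391) whatever the density elsewhere, and says nothing. Leaving out 1 replicate gave -0.646 to -0.315 peaks per Mb (exact p = 0.0391 to 0.164), below 0.05 without 48 h replicate 1 (-0.642) or 96 h replicate 2 (-0.646) and smallest without 48 h replicate 2. Keeping only peaks at or above the median score of their list left 3 sites. Counting reading frames raised the sites at variable exons from 2 to 4, and the 20-base motif in place of words gave 1 site with a match. With lists of 821 peaks the score percentile and the F over time points have no value, and the differences between time points are 0, since no peak remained. With peaks at or above the median score, 48 h minus resting was -0.333, 96 h minus resting 0 and 96 h minus 48 h 0.333 peaks, and the score percentile differed by -40.1 (n = 2, exact p = 0.5). Without 1 replicate, 48 h minus resting ran from -0.333 to 0.333. F over time points ranged from 0.5 to 7.81 without 1 replicate (exact permutation p = 0.107 to 0.786).

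With the replicate block, F over time points was 1.2 (exact permutation p = 0.556), and the 96 h differences of 1 peak had exact p = 0.5. The numbers share no stated origin. Same-numbered replicates correlated at -0.214 to 0.269 in their deviations, and 5 of 9 correlated best with their own number, so they were not treated as pairs.

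The number of peaks limits every comparison. A count of 0 to 2 peaks per replicate cannot show differences between time points at 3 against 3, and reads below the peak caller's threshold are not analysed here.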
